A study of Bos taurus with 20 samples.

Results

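The endometrium, the lining of the uterus, was examined for the transcripts that took up the largest part of its messenger RNA at estrus. The members were the gene IDs whose median over the 4 day 0 libraries, in counts per 1000000 of the library's total count (CPM), was 1000 or more after 0.5 was added. The rule left 74 of 27607 IDs, and all 74 passed the low-count filter of the test across genes. The members were chosen from the day 0 values, so every statement that sets day 0 against another day is a description without a test. The 20 libraries came from virgin, non-lactating Holstein heifers of at least 7 months and 340 kg. All of them, day 0 included, had been synchronized with a gonadotropin-releasing hormone analog, an intravaginal progesterone device and 2 doses of the prostaglandin F2α analog cloprostenol. Which animal was biopsied when was drawn at random, with 4 libraries each from day 0 (estrus), day 5, day 10, day 14 and day 18.

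In poly(A) libraries of a solid tissue, a small number of genes usually takes up a large part of the reads, and a change in those few genes moves the share of every other gene. In the bovine cycle, estrus comes when estradiol from the preovulatory follicle is high and progesterone is low. The days that follow are those in which a corpus luteum forms, secretes progesterone and regresses. Endometrial stroma, glands and surface epithelium all carry receptors for these steroids, and a biopsy holds a mixture of these cells. The deposited tables give IDs without gene names, and a table of 37063 cattle genes held 0 of the 27607 IDs. Roles, gene families, sequences and the markers of the labelled tissue are therefore not given. Members are called by their rank in median CPM on day 0, and 4 IDs are printed. Transcript lengths were not used, so a rank orders shares of counts and not numbers of molecules.

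Total counts ranged from 21234000 to 26644679 per library. The 4 day 0 libraries lay close together, with a median correlation of log2 CPM across genes of 0.968 to 0.974 between each of them and the others of that day. Day 10 replicates 1 and 3 and day 18 replicate 3 lay apart on the first principal component, with scores of 103, 119 and 117 against at most 33.3 in any other library. Day 18 replicate 1 had a median correlation of 0.945 with the day 0 libraries, the highest of the later libraries, and 0.905 with the other day 18 libraries. A higher median with day 0 than with the own day was not particular to it. Day 18 replicates 2 and 4 had 0.932 and 0.921 with day 0 against 0.918 and 0.905. Day 10 replicates 2 and 4 had 0.926 and 0.911 against 0.871 and 0.885. Values without some or all of these 4 libraries, a choice made after their values were seen, stand beside the results that they moved.

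The 74 members held more of the counts on day 0 than on any later day. On day 0 they held 23.1%, 23.8%, 21.9% and 22.4% of the counts in replicates 1 to 4, and on day 5 14.5%, 13.6%, 16.1% and 13.2%. On day 10 the values were 11.5%, 12.2%, 13.9% and 11.2%, and on day 14 10.9%, 11.8%, 10.7% and 10.0%. On day 18 they were 21.1%, 11.9%, 14.6% and 10.9%. Every later library lay below every day 0 library, and the nearest to them was day 18 replicate 1. The means were 22.8% ± 0.811, 14.3% ± 1.31, 12.2% ± 1.20, 10.8% ± 0.722 and 14.6% ± 4.63 on days 0, 5, 10, 14 and 18 (SD, n = 4 libraries each). Day 0 exceeded the later days by 8.45, 10.6, 11.97 and 8.17 percentage points in that order, and day 18 had a mean of 12.5% ± 1.95 (SD, n = 3) without replicate 1. In a biopsy, fewer cells of a type and less RNA per cell cannot be told apart, and a share also moves when other transcripts change.

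**Figure D1:**
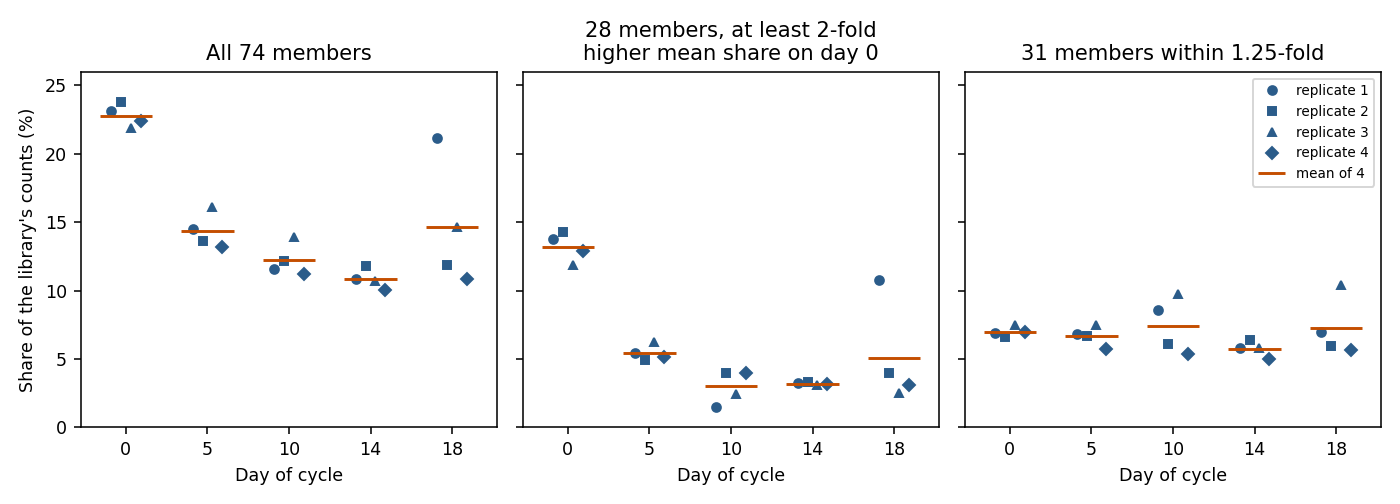
Share of each library's counts (%, vertical axis) by day of the cycle (horizontal axis) for all 74 members, for the 28 with a mean share at least 2-fold higher on day 0 than over the later days, and for the 31 within 1.25-fold. Points are libraries, marked by replicate, and lines are means of 4; the day 0 libraries sit between 21.9% and 23.8% in the left panel and day 18 replicate 1 at 21.1%.

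Most of the difference in share was taken up by IDs that had 10 to under 100 CPM on day 0. The 1941 IDs with a day 0 median from 100 to under 1000 CPM held 44.2% ± 0.352 of the counts at estrus and 44.4%, 44.1%, 46.0% and 44.9% on days 5, 10, 14 and 18, with SDs from 0.850 to 2.08 points (n = 4 each). The 7924 IDs from 10 to under 100 CPM held 30.7% ± 0.562, 37.4% ± 0.674, 38.6% ± 1.11, 39.3% ± 0.559 and 36.4% ± 3.26 on days 0, 5, 10, 14 and 18 in turn (SD, n = 4 each). The 4560 IDs from 1 to under 10 CPM held 2.10% at estrus and 3.48%, 4.53%, 3.59% and 3.65% on the later days. The classes were cut on the same day 0 values as the members.

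A handful of members accounted for most of the larger share on day 0. The excess of a member is its mean percentage of counts on day 0 less the average of its means on the 4 later days, and it summed to 9.80 percentage points over the 74 members. It was positive for 63 members, with a sum of 10.2 points, and negative for 11, with a sum of −0.416 points. With totals scaled by the trimmed mean of M values (TMM), which sets most genes level between libraries, 69 were positive and 5 negative. ENSBTAG00000021466, rank 1, had the largest excess at 1.79 points, 18.2% of the sum. ENSBTAG00000013103, rank 3, followed with 1.53 points. Ranks 2 and 5 had 1.42 and 0.758 points. These 4 members together held 5.49 points, 56.03% of the excess, and the 10 members with the largest excess held 7.09 points, 72.4%. The other members of these 10 were ranks 6, 8, 10, 11, 21 and 16, in falling order of excess. The place of rank 10 rested on day 0 replicate 3, with 11219 CPM against 2718 to 3675 in the other libraries of that day. The order of excess was not that of the ranks: rank 4 had an excess near 0 whose sign differed between scalings and with the libraries used, and the member of rank 53 came in place 13 with 0.142 points.

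**Figure D2:**
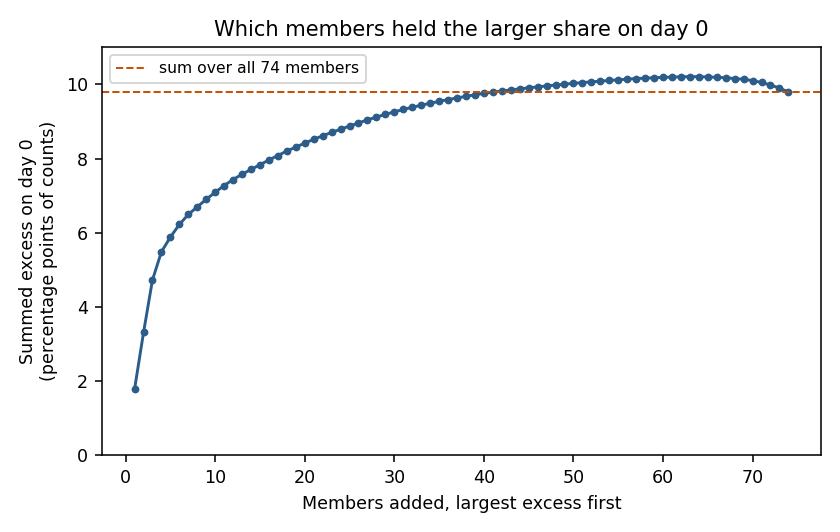
Summed excess of share on day 0 (percentage points of counts, vertical axis) as members are added from the largest excess to the smallest (horizontal axis, number of members). Points are running sums; the first 4 reach 5.49 points, and the dashed line marks the sum of 9.80 over all 74.

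Rank 1, ENSBTAG00000021466, had 30162, 32518, 26993 and 25568 CPM in the 4 day 0 libraries, in replicate order. It had 13081, 13395, 18826 and 12951 on day 5, 1842, 11068, 5095 and 11443 on day 10 and 9923, 8911, 8965 and 8618 on day 14. On day 18 it had 28368, 9127, 5331 and 8119 CPM. Of the 16 later libraries, 15 lay below every day 0 library, and day 18 replicate 1 lay within the day 0 range. Rank 3, ENSBTAG00000013103, had 17426, 23449, 17572 and 22127 CPM on day 0, 4375, 7725, 7796 and 8702 on day 5, 339, 3824, 5167 and 3928 on day 10, 2444, 2449, 2830 and 2222 on day 14 and 14088, 4007, 5853 and 2544 on day 18. All 16 later libraries lay below the day 0 libraries, with day 10 replicate 1 far below the rest and day 18 replicate 1 the highest of them. The mean of rank 3 was 20144 ± 3101 CPM at estrus against 2486 ± 253 CPM on day 14 (SD, n = 4 each), a ratio of 8.10; that of rank 1 was 28810 ± 3130 and 9104 ± 567 CPM, a ratio of 3.16.

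The members of ranks 2 and 5 followed the same course. Rank 2 had 20375, 21008, 16238 and 19605 CPM on day 0, 5325, 7589, 8985 and 8316 on day 5, 439.9, 4591, 3963 and 4281 on day 10, 3640, 2958, 3777 and 2782 on day 14 and 13303, 4921, 3980 and 3009 on day 18. Rank 5 had 11859, 12069, 9753 and 10602 CPM on day 0, 3537, 4547, 6239 and 4779 on day 5, 629.6, 3882, 2665 and 3942 on day 10, 2256, 3685, 2131 and 2523 on day 14 and 7879, 2871, 2465 and 1854 on day 18. For both, the 16 later libraries lay below all day 0 libraries, day 10 replicate 1 was the lowest library and day 18 replicate 1 the highest of the later ones. Some of the 6 ratios between the leading members, taken within a library, differed between days 0 and 14. Rank 1 to rank 2 averaged 1.499 ± 0.150 on day 0 and 2.80 ± 0.327 on day 14, rank 1 to rank 3 1.45 ± 0.243 and 3.69 ± 0.387, rank 2 to rank 3 0.969 ± 0.135 and 1.32 ± 0.124, and rank 3 to rank 5 1.83 ± 0.264 and 0.989 ± 0.283 (SD, n = 4 each). In these 4 pairs the libraries of the 2 days did not overlap. They overlapped for rank 1 to rank 5, with 2.60 ± 0.159 and 3.61 ± 0.901, and for rank 2 to rank 5, with 1.74 ± 0.0774 and 1.32 ± 0.449. On day 10 the ratios were spread widely, as for rank 1 to rank 2 with 2.64 ± 1.20. Summed over these 4 members, the share was 7.93% ± 0.761, 3.40% ± 0.637, 1.68% ± 0.954, 1.75% ± 0.0950 and 2.94% ± 2.29 on days 0, 5, 10, 14 and 18 in turn (SD, n = 4 each). Day 18 replicate 1 was at 6.36%, and without it day 18 averaged 1.80% ± 0.272 (SD, n = 3).

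**Figure D3:**
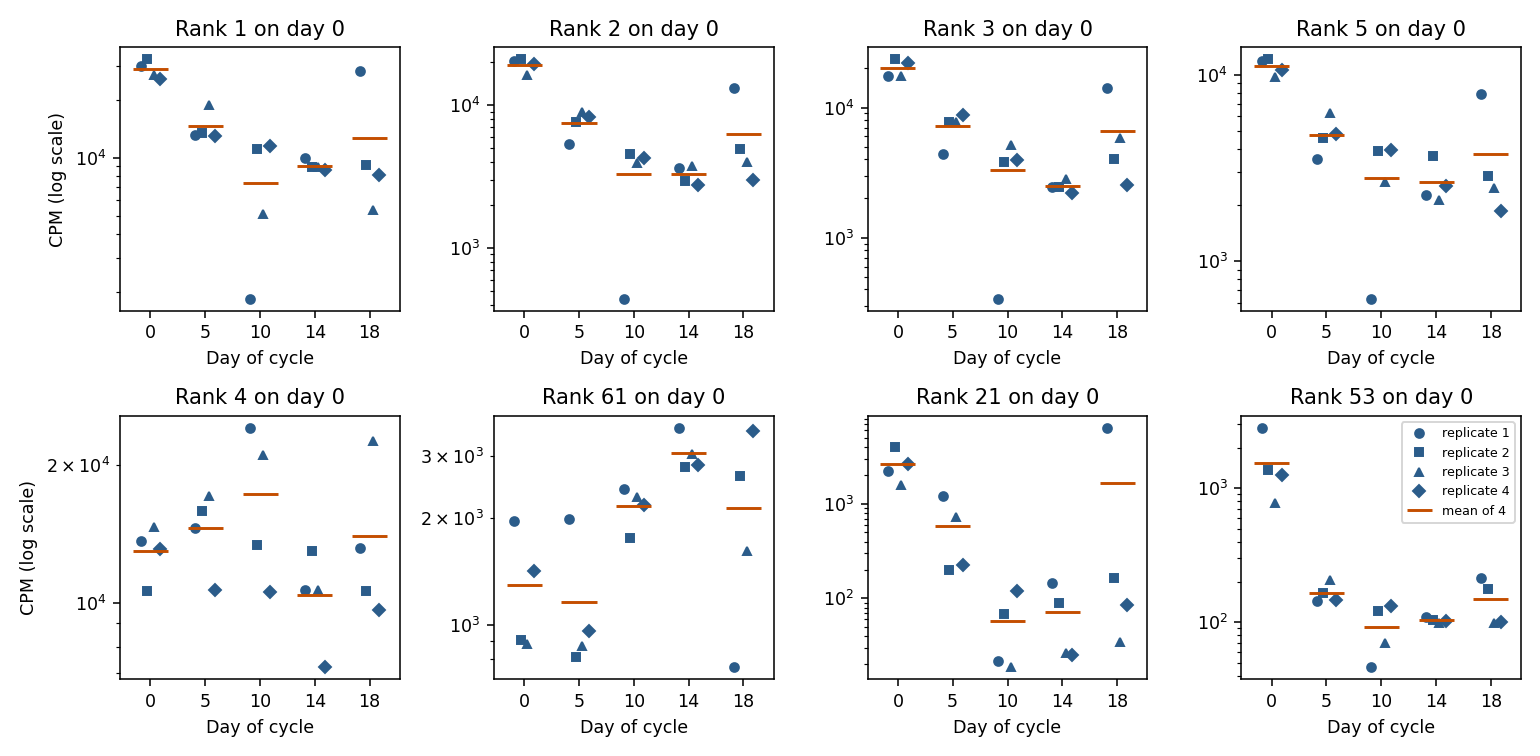
CPM (log axes, a separate range for each panel) by day of the cycle for 8 members, called by rank on day 0. Points are libraries, marked by replicate, and lines are means of 4; ranks 1, 2, 3, 5, 21 and 53 are highest on day 0 apart from day 18 replicate 1 in ranks 1 and 21, whereas rank 4 overlaps between days and rank 61 has its highest mean on day 14.

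Relative to their own level, several members beyond the leading 4 differed more between day 0 and the later days. Over all libraries rank 53 had the highest ratio of day 0 to the later days, 12.2, and rank 8 followed with 7.26. This order rested on day 18 replicate 1: without it rank 21 had the highest, 12.9 instead of 4.41, ahead of rank 53 with 12.7 and rank 8 with 7.79. Rank 53 had 2815, 1370, 777 and 1244 CPM on day 0, 143, 166, 208 and 147 on day 5, 46.1, 122, 69.8 and 131 on day 10, 110.2, 104, 99.0 and 102 on day 14 and 215, 178, 98.5 and 101 on day 18. The day 0 libraries were spread over a 3.62-fold range, and all 16 later libraries lay below the lowest of them, day 18 replicate 1 included. Rank 8 had 5745, 4080, 2246 and 3729 CPM on day 0, 628, 622, 815 and 713 on day 5, 259, 546, 183 and 583 on day 10, 506, 364, 463 and 717 on day 14 and 1020, 546, 239.8 and 498 on day 18. It did not return to the day 0 range in any later library either, and day 18 replicate 1 reached 0.258 of its day 0 mean. A ratio of 4 or more was seen for 9 members, ranks 3, 8, 21, 43, 46, 50, 53, 57 and 70, and a ratio of 2 or more for 28. Without day 18 replicate 1 these numbers were 11 and 31, without the 3 libraries apart 6 and 26, and without all 4 they were 9 and 27. Among the 28, rank 10 had a ratio of 2.05 that rested on day 0 replicate 3. The summed share of these 28 members was 13.2% ± 1.03, 5.44% ± 0.587, 2.99% ± 1.22, 3.20% ± 0.115 and 5.09% ± 3.85 on days 0, 5, 10, 14 and 18 in turn (SD, n = 4 each), and their excess was 92.1% of the sum over all 74. The class was cut after the values were seen, and its direction is set by the cut.

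In 25 of these 28 members the mean of day 5 lay between that of day 0 and the higher of days 10 and 14, and in 24 without the 4 libraries apart. Day 10 had the lowest mean in 18 members, day 14 in 8, and days 5 and 18 in 1 each. That order turned with the libraries: without the 3 libraries apart day 14 had the lowest mean in 23 members and day 10 in 3, and without all 4 day 14 had it in 16, day 18 in 9 and day 10 in 2. Day 10 replicates 1 and 3, with 1.52% and 2.45% of the counts in these members, lay below replicates 2 and 4, with 3.98% and 4.01%. On day 14 the 4 libraries lay within 3.06% to 3.33%. The mean of day 18 was above that of day 14 in 25 members, but in 12 when day 18 replicate 1 was left out and in 19 when all 4 libraries were. In day 18 replicate 1 these members held 10.8% of the counts against 3.96%, 2.54% and 3.06% in replicates 2 to 4.

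Rank 21 showed wide differences between the libraries of a day. It had 2236, 3993, 1604 and 2674 CPM on day 0, 1210, 200.4, 719 and 226 on day 5, 21.9, 68.3, 18.6 and 119.7 on day 10, 146, 90.2, 26.7 and 24.97 on day 14 and 6383, 163, 34.5 and 84.5 on day 18. On days 10 and 14 every library was below every day 5 library, while day 18 replicate 1 was above every day 0 library. Rank 18 was alike in this respect, with 2295, 4019, 2908 and 2194 CPM on day 0, 2745, 1617, 2793 and 1658 on day 5, 107, 1424, 253 and 968 on day 10, 795, 1172, 1040 and 746 on day 14 and 7698, 951, 295 and 1005 on day 18. Over all 74 members, day 18 replicate 1 was at or above the lowest day 0 library in 46, and it was the highest of the 16 later libraries in 34. It stayed below the day 0 range in the other 28, by most in rank 53, where it reached 0.138 of the day 0 mean, so it did not match day 0 throughout. These numbers were not counted over all tested IDs, so they cannot be read as particular to the members.

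Another 31 members had a day 0 mean within 1.25-fold of their later average, or 21 with TMM-scaled totals, and 22 and 17 without the 3 or the 4 libraries apart. The 31 held 7.00% ± 0.366, 6.68% ± 0.717, 7.44% ± 2.05, 5.73% ± 0.568 and 7.25% ± 2.20 of the counts on days 0, 5, 10, 14 and 18 (SD, n = 4 each). They were highest in the 3 libraries that lay apart, with 8.58% and 9.72% in day 10 replicates 1 and 3 and 10.4% in day 18 replicate 3. Without these 3, day 10 averaged 5.73% ± 0.527 (SD, n = 2) and day 18 6.19% ± 0.692 (SD, n = 3), both below day 0. On day 14, which holds none of them, all 4 libraries, from 5.00% to 6.38%, lay below the day 0 libraries, from 6.63% to 7.51%. ENSBTAG00000043561, rank 4, is the most abundant of them, with 13642, 10579, 14611 and 13099 CPM on day 0, 14555, 15889, 17130 and 10668 on day 5, 24164, 13406, 21070 and 10542 on day 10, 10638, 12947, 10670 and 7209 on day 14 and 13151, 10607, 22577 and 9627 on day 18. Its libraries overlapped between day 0 and every later day. Its excess was the lowest of all members at −0.107 percentage points, but 0.00642 with TMM-scaled totals and 0.0976 without the 3 libraries apart, so its direction depends on the scaling and on those libraries. Rank 12 lay just outside this class, with little difference between libraries: 3341, 3201, 3050 and 3335 CPM on day 0, 2117, 2148, 2410 and 2692 on day 5, 2929, 2534, 2975 and 2190 on day 10, 2471, 2854, 2760 and 2817 on day 14 and 2158, 2320, 2877 and 2555 on day 18. Its ratio of day 0 to the later days was 1.27, and all 16 later libraries lay below the day 0 libraries, which had a coefficient of variation of 4.24%.

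Members with a smaller share on day 0 under both scalings were few. ENSBTAG00000020060, rank 61, had 1967, 908, 883 and 1421 CPM on day 0, 1991, 811, 873 and 961 on day 5, 2413, 1762, 2298 and 2184 on day 10, 3596, 2785, 3036 and 2817 on day 14 and 759, 2627, 1611 and 3529 on day 18. All day 14 libraries lay above all day 0 and day 5 libraries, while day 18 replicate 1 had the lowest value of the 20 libraries. Its later mean was 1.64 times its day 0 mean, and its excess was −0.0833 percentage points by total counts and −0.0660 by TMM-scaled totals. Rank 39 had 1680, 1565, 1247 and 1638 CPM on day 0, 2476, 1846, 1682 and 1544 on day 5, 2589, 1841, 3381 and 2125 on day 10, 2219, 1955, 2365 and 2037 on day 14 and 1754, 2333, 2960 and 2179 on day 18. Its day 0 libraries lay below all day 10, day 14 and day 18 libraries. Of all tested IDs, 14.5%, 25.8% and 4.41% had this pattern on these days in turn. With TMM-scaled totals, 5 members had a negative excess instead of 11: ranks 7, 15, 39, 61 and 71. By total counts, the ratio of day 0 to the later days was 0.899 in rank 7 and 0.892 in rank 15. Without the 3 libraries apart these ratios were 1.11 and 0.993, so the direction of rank 7 depends on those libraries.

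Across the members, the later days lay below day 0 with median log2 ratios of −0.38, −0.55, −0.72 and −0.29 for days 5, 10, 14 and 18 (ratios of mean CPM + 0.5). Over all 16947 tested IDs the medians were 0.18, 0.14, 0.22 and 0.12. With TMM-scaled totals the medians of all IDs were 0.02, 0.04, 0.02 and 0.05, and those of the members −0.57, −0.66, −0.94 and −0.33. Without the 4 libraries apart, the medians of the members by total counts were −0.68 on day 10 and −0.64 on day 18. Of the members, 62, 57, 66 and 57 had a lower mean on days 5, 10, 14 and 18 than on day 0, and 70, 65, 71 and 58 with TMM-scaled totals. The 143 IDs of the next class, with a day 0 median of 500 to under 1000 CPM, had medians of −0.39, −0.38, −0.50 and −0.18 with TMM-scaled totals, which lie between the members and all IDs. The members were chosen for high day 0 values, so these medians carry no test.

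**Figure D4:**
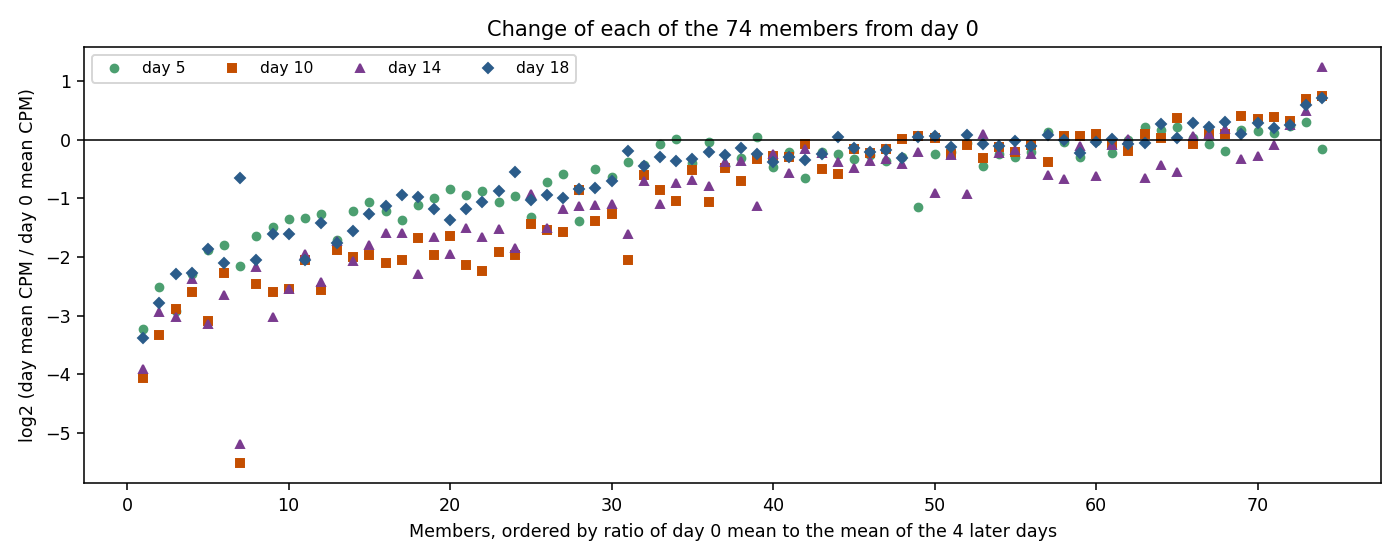
Log2 ratio of the mean CPM on days 5, 10, 14 and 18 to that on day 0 (vertical axis) for each of the 74 members (horizontal axis, ordered by the ratio of the day 0 mean to the later average). Points are ratios of means of 4 libraries and the line marks no change; days 10 and 14 lie lowest for most members on the left, and points on the right lie around 0.

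The day 0 libraries lay above all 16 later ones in 14 members, where 1.79% of all tested IDs did so, and above the 15 other than day 18 replicate 1 in 24, where 2.93% did. With TMM-scaled CPM the former number was 12. The share of all tested IDs was not counted at that scaling, so this number cannot be read as particular to the members. No member had all 16 later libraries above day 0, against 1.89% of tested IDs. In the edgeR quasi-likelihood test with Benjamini-Hochberg adjustment, 11 members were called lower on day 5 than on day 0 (4.14% of all tested IDs), 29 lower on day 10 (7.18%), 27 lower on day 14 (8.43%) and 8 lower on day 18 (1.75%). The members were chosen on these day 0 values, so nothing is read from these numbers. They also turned on the libraries that lay apart: without the 3 libraries the numbers were 29, 31, 50 and 8 (17.7%, 10.1%, 25.3% and 3.86% of IDs called in either direction), and without these and day 18 replicate 1 they were 45, 49, 56 and 45 (23.6%, 18.2%, 34.2% and 18.6%), of which all but 1 on days 10 and 14 each were lower. Other single libraries moved them as well. For day 5 the number dropped to 7, 7, 6 and 7 when day 0 replicate 1, day 0 replicate 2, day 5 replicate 2 or day 5 replicate 4 was left out. The share of all IDs called in either direction dropped too, from 8.57% to 3.36%, 3.68%, 2.53% and 4.34%. For day 10 the number dropped to 19 with either day 0 replicate 2 or day 10 replicate 1 left out, and the share of IDs from 15.8% to 7.28% and 8.3%. For day 18 the number dropped to 4 when day 0 replicate 1 was left out and to 5 when day 18 replicate 4 was. It went up to 29 when day 18 replicate 1 was left out. The share of IDs went from 2.83% to 0.611%, 0.965% and 13.7% in turn.

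The days after estrus were not used to choose the members, so changes among them could be tested. None of the 74 members passed the edgeR test of any difference among days 5, 10, 14 and 18 (Benjamini-Hochberg adjusted over 16947 IDs), where 0.112% of all IDs passed. An unadjusted p under 0.05 was reached by 12 members and by 16.9% of all IDs, and DESeq2 called 4 members (6.69% of IDs). Without day 18 replicate 1 the edgeR test called 3 members and 533 IDs in all, 3.10% of those tested. Without the 3 libraries apart it called 0 (0.933% of IDs), and without these and day 18 replicate 1 it called 16 (9.34% of IDs). For the 4 IDs named, the edgeR adjusted p went from 0.445 to 0.0133 for ENSBTAG00000021466 (rank 1), from 0.275 to 0.00481 for ENSBTAG00000013103 (rank 3), from 0.223 to 0.0397 for ENSBTAG00000020060 (rank 61) and from 0.391 to 0.186 for ENSBTAG00000043561 (rank 4) when the 4 libraries were left out. Leaving them out lowered the common biological coefficient of variation of the fit from 0.445 to 0.323. These libraries were picked after their values were seen, and days 10 and 18 then held 2 libraries each. The lower p-values without them are therefore not read as a change among the later days.

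Between single pairs of later days the edgeR test called no member either. The fitted log2 changes of the members had a median of −0.46 from day 5 to day 14, where that of all IDs was −0.01. An unadjusted p under 0.05 was reached by 13 members and by 21.2% of all IDs. Of these members 12 were lower on day 14 and 1 was higher, where 11.2% and 10.1% of all IDs were. From day 14 to day 18 the median was 0.53, where that of all IDs was 0.02. An unadjusted p under 0.05 was reached by 15 members, all higher on day 18, and by 1703 of the 16947 IDs, of which 1177 were higher. Day 18 holds the library nearest to day 0. From day 5 to day 14, where 1.18% of IDs were called, the members past an unadjusted p of 0.05 were those 13 and DESeq2 called 5 (8.1% of IDs). Without day 5 replicate 1 the edgeR test called 2 members (5.04% of IDs), and without the 3 libraries apart 4, all lower on day 14 (5.4% of IDs). Without these and day 18 replicate 1 it called 24, of which 23 were lower on day 14 (17.0% of IDs). From day 5 to day 18 (0.0059% of IDs called), 2 members and 14.3% of IDs had an unadjusted p under 0.05 and DESeq2 called 0 (3.21% of IDs); without the 3 libraries edgeR called 0 (0.00576% of IDs) and without the 4 it called 7, of which 6 were lower on day 18 (4.98% of IDs). From day 5 to day 10 (0.0059% of IDs), 10 members and 13.3% of IDs had an unadjusted p under 0.05 and DESeq2 called 0 (1.66% of IDs). From day 10 to day 14, day 10 to day 18 and day 14 to day 18, edgeR called 0% of IDs. In the first 2 of these pairs, 8 members each had an unadjusted p under 0.05, as had 8.24% and 8.16% of all IDs, and over the 3 pairs DESeq2 called 0, 1 and 1 (0.0889%, 0.507% and 0.237% of IDs). Day 5 to 10, day 10 to 14, day 10 to 18 and day 14 to 18 gave 0 members in edgeR without the 3 libraries (0.0461%, 0%, 0.00576% and 0% of IDs) and without the 4 (0.941%, 0.00577%, 0.0173% and 0%).

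In edgeR, the pairwise differences with the lowest adjusted p were seen between days 5 and 14. Rank 56 had 1288, 1354, 1225 and 1060 CPM on day 5 and 528, 520.4, 539 and 579 on day 14, without overlap, and differed by −1.21 on the log2 scale (SE 0.331, edgeR adjusted p = 0.0655, DESeq2 adjusted p = 0.0121). ENSBTAG00000020060, rank 61, differed by 1.36 on the log2 scale between these days (SE 0.372, edgeR adjusted p = 0.0656, DESeq2 adjusted p = 0.00861). The direction held in all 4 day 14 libraries, but the edgeR value missed the threshold. For ENSBTAG00000013103, rank 3, the log2 fold change from day 5 to day 14 was −1.55 (SE 0.597, edgeR adjusted p = 0.156), and for ENSBTAG00000021466, rank 1, −0.707 (SE 0.495, edgeR adjusted p = 0.437). For ENSBTAG00000043561, rank 4, it was −0.524 (SE 0.341, edgeR adjusted p = 0.399). All 4 day 14 libraries of ranks 1 and 3 lay below all 4 day 5 libraries, as they did in 21 members, where 8.54% of all tested IDs had this pattern. Rank 21 had the lowest p of the test over days 5 to 18 (edgeR adjusted p = 0.139, DESeq2 adjusted p = 0.000669), and its change from day 14 to day 18, 4.81 on the log2 scale (SE 1.39, edgeR adjusted p = 0.453, DESeq2 adjusted p = 0.0076), rested on day 18 replicate 1, with replicates 2 to 4 between 34.5 and 163 CPM. In DESeq2 its change from day 10 to day 18 had the lowest adjusted p of any member and pair of later days, 0.00213, and rested on the same library.

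The same rule applied to the other days gave shorter lists. A median of 1000 CPM or more was reached by 59, 58, 63 and 50 IDs on days 5, 10, 14 and 18. The day 5 list shared 47 IDs with the 74 members, 79.7% of the day 5 list and 63.5% of the members. The day 10 and day 18 lists shared 40 members each, 69.0% and 80.0% of those lists. The day 14 list shared 39, 61.9% of that list and 52.7% of the members. In all 5 lists stood 32 IDs, and 22 members stood in the day 0 list alone. The lists of other days also held a larger share of counts on day 0 than on their own day: the day 14 list held 12.4% ± 0.682 on that day and 18.5% ± 0.169 at estrus (SD, n = 4 each), and the day 10 list 13.9% ± 3.11 on its own day and 17.8% ± 0.233 at estrus. The 4 leading members, ranks 1, 2, 3 and 5, reached the threshold on every day and stand in all of these lists. In number, 31 of the 63 IDs of the day 14 list were higher on day 0, or 38 with TMM-scaled totals.

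The day 0 libraries were close together for some members and far apart for others. The coefficient of variation over the 4 libraries had a median of 15.8% and ran from 4.24% in rank 12 to 80.8% in rank 58. Rank 10 had 2718, 3444, 11219 and 3675 CPM on day 0, so that its place in the mean rested on replicate 3, and single libraries also stood out on day 5, with 4793, 1136, 994 and 1129, and on day 10, with 7521, 1432, 919 and 1815. All 4 day 0 libraries had 1000 CPM or more in 52 members, and at least 1 library was lower in the other 22. At the threshold, ranks 73 and 74 were included with medians of 1009 and 1002 CPM, and ranks 75 and 76 were not, with 994 and 992 CPM. Rank 74 ranged from 943 to 1082 CPM on day 0 and rank 75 from 801 to 1300, so the libraries did not separate the last members from the first IDs left out.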

How the data were processed

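Endometrial biopsies of 20 synchronized heifers, 4 for each of 5 days, were sequenced from poly(A)-captured RNA with a stranded kit, per the labels' protocols. The deposited tables hold whole-number read counts per gene ID, 1 table for each library, with no normalization. FastQC, STAR and edgeR appear without version or role, per the submitters' processing notes. The labels state no genome build, annotation, counting tool or molecular identifiers. CPM is the count divided by the library's total count times 1000000. Differences between days were tested with edgeR 4.0.16 (filterByExpr, TMM factors, robust quasi-likelihood F test) with 1 mean for each day over all 20 libraries. That left 16947 IDs, over which p-values were adjusted by the Benjamini-Hochberg method at 0.05. Alternatives were DESeq2 1.42.0, other scalings, filters and thresholds, a replicate block, and libraries left out. The members, lists and classes were chosen with earlier results of these data known. Prepared gene lists and cell markers could not be applied without gene names. The IDs named are the 2 with the largest positive and the 2 with the largest negative excess of share on day 0, and other members are called by rank. Ranks 8, 10, 12, 18, 21, 39, 53 and 56 were picked for description after their values were seen.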

Additional observations from a re-analysis of the deposited data

Results flagged for a closer look

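In 90 groups of 4 libraries (18 quantities on 5 days), the highest or lowest library was checked for a gap to its neighbour that, as a part of the range, exceeds the 95% critical value of Dixon's test, as chance does in about 1 of 20 groups. It was exceeded 12 times. Day 18 replicate 1 stood above the other libraries of its day in the member of rank 1 (28368 CPM against 5331 to 9127), rank 5 (7879 against 1854 to 2871), rank 18 (7698 against 295 to 1005) and rank 21 (6383 against 34.5 to 163). That library lay below the day 0 libraries in rank 5, within their range in rank 1 and above all of them in ranks 18 and 21. Day 18 replicate 3 stood above the others in rank 7 (10706 CPM against 3490 to 4111).

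Day 10 replicate 1 stood below the others in rank 2 (440 CPM against 3963 to 4591) and above them in rank 10 (7521 CPM against 919 to 1815). Day 5 replicate 1 stood above the others in rank 6 (3755 CPM against 2210 to 2395), rank 10 (4793 against 994 to 1136) and rank 61 (1991 against 811 to 961). Day 5 replicate 3 stood above the others in rank 1 (18826 CPM against 12951 to 13395). Day 0 replicate 3 stood above the others in rank 10 (11219 CPM against 2718 to 3675), so rank 10 had a single high library on days 0, 5 and 10.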

How the results depend on the processing

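With DESeq2, 4 members were called over days 5 to 18 (6.69% of IDs), 5 from day 5 to 14 (8.1%), 1 from day 10 to 18 (0.507%) and 1 from day 14 to 18 (0.237%). It also called 20 from day 0 to 5 (15.8%) and 13 from day 0 to 18 (9.87%). Without day 10 replicates 1 and 3 and day 18 replicate 3, a choice made after seeing the data, edgeR called 4 from day 5 to 14 (5.4% of IDs), 29 from day 0 to 5 (17.7%) and 50 from day 0 to 14 (25.3%). Without these and day 18 replicate 1, edgeR called 16 over days 5 to 18 (9.34% of IDs), 24 from day 5 to 14 (17.0%) and 7 from day 5 to 18 (4.98%). From day 0 to days 5, 10, 14 and 18 it called 45, 49, 56 and 45 (23.6%, 18.2%, 34.2% and 18.6%). The cause of these moves was not tested. Leaving out 1 library at a time gave 0 to 3 members over days 5 to 18 (0.0291% to 3.10% of IDs called) and 0 to 2 from day 5 to 14 (0.0116% to 5.04%). It gave 6 to 11 from day 0 to 5 (2.53% to 8.02%) and 19 to 31 from day 0 to 10 (7.28% to 16.4%). From day 0 to 14 it gave 19 to 26 (5.91% to 12.6%) and from day 0 to 18 4 to 29 (0.611% to 13.7%). It gave 0 for the other pairs of later days (0% to 2.55% of IDs called). The rule then gave 73 to 75 members, 60 to 64 with a positive excess, and shares of 22.5% to 23.1%, 13.8% to 14.7%, 11.6% to 12.5%, 10.5% to 11.1% and 12.5% to 15.9% on days 0, 5, 10, 14 and 18. By TMM-scaled totals the day 0 share was 24.8%, and the excess of ENSBTAG00000043561 turned to 0.00642 percentage points; without the 3 libraries apart it was 0.0976 and without the 4 it was 0.123. A threshold of 500 CPM gave 217 members with 32.5%, 22.9%, 20.1%, 19.4% and 23.4% of the counts on days 0, 5, 10, 14 and 18. One of 2000 CPM gave 30 members with 16.8%, 10.1%, 8.16%, 6.99% and 10.1% on the same days. With the replicate number as a block, edgeR called 0 members over days 5 to 18 and in each pair of later days. Over all IDs it called 4 over days 5 to 18, 373 from day 5 to 14 and 0 in every other pair of later days. From day 0 to days 5, 10, 14 and 18 it called 11, 29, 30 and 8 members (1777, 2682, 2934 and 374 IDs). The sample titles name no link between libraries of the same number. The deviations of 40 same-numbered pairs had a median correlation of 0.0456 (−0.374 to 0.766), 12 of them above 0.1, against −0.0218 in the 120 other pairs. Of the 20 libraries, 10 correlated best with their own number, which 4 of the 16 libraries of other days bore. Whether a pairing by number exists was not tested. The 4 other settings run (other size factors, total counts, no low-count filter, a fit on the 16 later libraries) also called 0 members over days 5 to 18. Over all IDs these settings called 18, 22, 19 and 0 in turn. At this spread between libraries, a missed threshold does not show that members kept their level after estrus.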
